A study of Vitis vinifera with 66 samples.

Results

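In grape berries that met no summer stress, 150 genes formed a pulse around véraison, the onset of ripening, when the berry softens and starts to store sugar. On average over these berries, each had fewer transcripts before véraison and at harvest than around it. The genes were chosen by this pattern in control (C) and spring-flooded (F) berries. Counts were scaled to the total of their library as CPM, the usual unit of counts relative to sequencing depth, log2(CPM + 1) was averaged over the 6 libraries of C and F at T0, T2 and T5, and the score of a gene was its T2 mean minus the larger of its T0 and T5 means. Of the 29537 gene IDs of the table, 12249 had a mean of at least 5 CPM at T2, and the 150 with the highest score among them are the members described here. The rise to T2 and the fall to T5 in C and F berries are therefore what chose the genes, so they are given as a description and were not tested.

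The berries came from potted vines of Sauvignon Blanc, a white-berried cultivar, of 1 clone on 1 rootstock, and gave 66 libraries in 22 groups of 3. FH vines were waterlogged at budbreak in spring and went through drought and a heatwave in summer, H vines went through the summer stresses alone, F vines were waterlogged alone, and C vines met neither. Sampling was at T0 (day 0), T1 (day 9, when the soil of H and FH vines had dried to 30% of field capacity and the heat had not begun), T2 (day 13) and T3 (day 15) during a heatwave of 5 °C, T4 (day 24, after recovery) and T5 (day 28, harvest), with no T0 libraries of H and FH. H and FH vines stood in a tunnel of their own, so the summer stress and the tunnel cannot be told apart. The replicates are berries of separately stored vines. In the main fit all 22 groups share 1 estimate of the spread between replicates for each gene, so p-values do not rest on the libraries compared alone. The difference in counts between T5 F replicates 1 and 2, as chi-square per degree of freedom, was 1.87. For every other pair of replicates it was 8.97 or more, and the reason was not tested. Since whole berries were sampled, a smaller number of cells of one type and less RNA per cell cannot be told apart.

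Grapevine is a non-climacteric fruit, in which abscisic acid is regarded as the main hormonal signal of véraison. Abscisic acid is made from carotenoids, and the cleavage by 9-cis-epoxycarotenoid dioxygenase (NCED) is held to be the step that limits its synthesis, while 8'-hydroxylases of the CYP707A family break it down. The hormone also accumulates in plants under drought, and the auxin response that dominates the young fruit fades as ripening starts.

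The deposited table gives IDs without descriptions, so a member is called by a name only where the study names its ID. That was the case for 6 members. NCED5 (VIT_10s0003g03750) had rank 7 by score and NCED3 (VIT_19s0093g00550) had rank 27. The other 4 belong to the genes that the study placed around abscisic acid in a network drawn from these same samples, of which 10 with a printed ID were used here, which makes that list no independent evidence. They are a matrix metalloproteinase (VIT_01s0026g00900, rank 8), the transcription factor MYB108 (VIT_07s0005g01950, rank 62), a thioredoxin superfamily protein (VIT_10s0003g00390, rank 68) and a glyoxalase I family protein (VIT_09s0002g06430, rank 73). A further member, VIT_17s0000g05580, carries no name but served the study as a reference gene in quantitative PCR.

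The members covered a wide range of abundance. Their mean at T2 in C and F ran from 5.72 to 7103 CPM with a median of 54.5 CPM, 34 of them lay under 20 CPM and 9 over 1000 CPM. The score was 4.46 for the first member, 1.86 for the median and 1.35 for the last, against a median of -0.43 for all 12249 IDs, and the last member inside (score 1.3496) and the first gene outside (1.3466) were almost level. A score of 1.86 corresponds to a T2 level 3.62 times the higher of T0 and T5. The level at harvest stood above that at T0 in 91 members and below it in 59. The chromosome number in the ID was 1 for 15 members (10%, against 6.07% of all 12249 IDs) and 8 for 14 (9.33% against 6.79%). The number 0 was carried by 14 (9.33% against 5.31%), and these shares were not tested. In 5 cases 2 members were next to each other in the order of IDs, a count without a background. In the closest pair by profile, VIT_17s0000g09800 and VIT_17s0000g09810, log2(CPM + 1) correlated with r = 0.997 over the 66 libraries, a description in which both genes share every library.

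Over the 22 groups the median member was lowest at T0 and highest at T3 in H berries. In F berries the median of the members was 8.38, 7.40 and 8.20 CPM at T0, 45.3, 42.5 and 49.0 CPM at T1, 49.7, 63.9 and 47.0 CPM at T2, 34.8, 50.1 and 33.8 CPM at T3, 12.1, 17.2 and 19.4 CPM at T4, and 9.38, 9.48 and 10.4 CPM at T5. In C berries it was 6.28, 5.22 and 5.11 CPM in the 3 libraries at T0, 16.8, 21.7 and 23.5 CPM at T1, 39.6, 44.3 and 68.5 CPM at T2, 44.3, 27.8 and 47.8 CPM at T3, 11.8, 19.0 and 13.2 CPM at T4, and 8.43, 8.90 and 7.27 CPM at T5. F berries thus stood at their T2 level already at T1, whereas no C library at T1 reached any C library at T2. Together the members took 0.35 ± 0.03% of all counts at T0, 4.12 ± 1.06% at T2 and 0.84 ± 0.09% at T5 in C berries (SD, n = 3 each).

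In the stressed berries, which were not sampled at T0, the members were high from T1 to T3 in FH and highest at T3 in H. In FH berries the median of the members was 53.9, 36.8 and 50.3 CPM at T1, 54.2, 38.8 and 45.7 CPM at T2, 40.0, 51.6 and 23.3 CPM at T3, 12.4, 33.7 and 19.4 CPM at T4, and 15.8, 12.1 and 12.7 CPM at T5. In H berries it was 22.7, 20.8 and 41.5 CPM at T1, 39.8, 33.4 and 41.2 CPM at T2, 63.8, 60.8 and 73.4 CPM at T3, 20.3, 14.6 and 19.2 CPM at T4, and 9.28, 15.9 and 33.4 CPM at T5. A few libraries stood apart from their group, namely T5 H replicate 3 and T4 FH replicate 2 with high values and T3 FH replicate 3 with low ones. Ordered by mean, T3 H (66 ± 6.6 CPM) came first, followed by T2 F (53.5 ± 9.1 CPM), T2 C (50.8 ± 15.5 CPM), T1 FH (47.0 ± 9.0 CPM), T2 FH (46.2 ± 7.7 CPM) and T1 F (45.6 ± 3.2 CPM) (SD, n = 3 each). The mean of T3 H exceeded that of T2 F by more than the SD of either group, and each of the other neighbours in this list differed by less than both SDs.

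**Figure D1:**
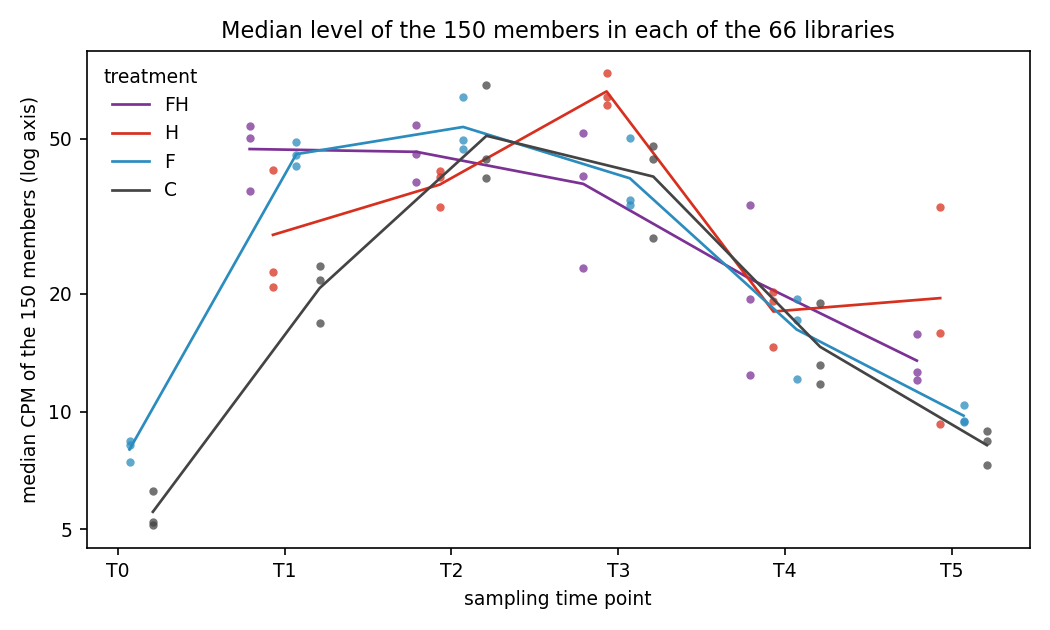
Median CPM of the 150 members (vertical log axis) in each of the 66 libraries by sampling time point, with points for libraries and lines through the means of FH, H, F and C. F and C libraries lie between 39.6 and 68.5 CPM at T2, against 5.11 to 8.38 CPM at T0, F and FH are above C at T1, and H is highest at T3.

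The time point at which a member had its highest group mean differed between treatments. In FH the highest mean fell on T1 for 68 members (45.3%, against 34.2% of all 12249 IDs), on T2 for 43 (28.7% against 12.5%), on T3 for 34 (22.7% against 9.06%), on T4 for 3 and on T5 for 2. In H, sampled like FH from T1 to T5, 104 members (69.3%) were highest at T3, against 9.92% of all 12249 IDs, and 26 were highest at T2, 13 at T1, 6 at T4 and 1 at T5. In F the highest mean was at T1 for 61 members (40.7%, against 20.9% of all IDs), T2 for 73 (48.7% against 5.22%), T3 for 12 and T4 for 4, and in C it was at T1 for 20, T2 for 96 (64%, against 6.41% of all 12249 IDs), T3 for 33 and T4 for 1. These counts rest on group means of 3 libraries and take no account of their spread. In C and F the rule picked members with T2 above T0 and T5. The many members highest at T2 there follow from that choice, and their share beside all IDs is no finding. The profile of a member over the 22 groups correlated with the mean profile of the other members at a median r of 0.84, with 89 members over 0.8 and 5 under 0.5, the lowest being VIT_17s0000g00820 with 0.37. Since the C and F groups at T0, T2 and T5 that chose the members are among the 22, part of this likeness is built in.

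**Figure D2:**
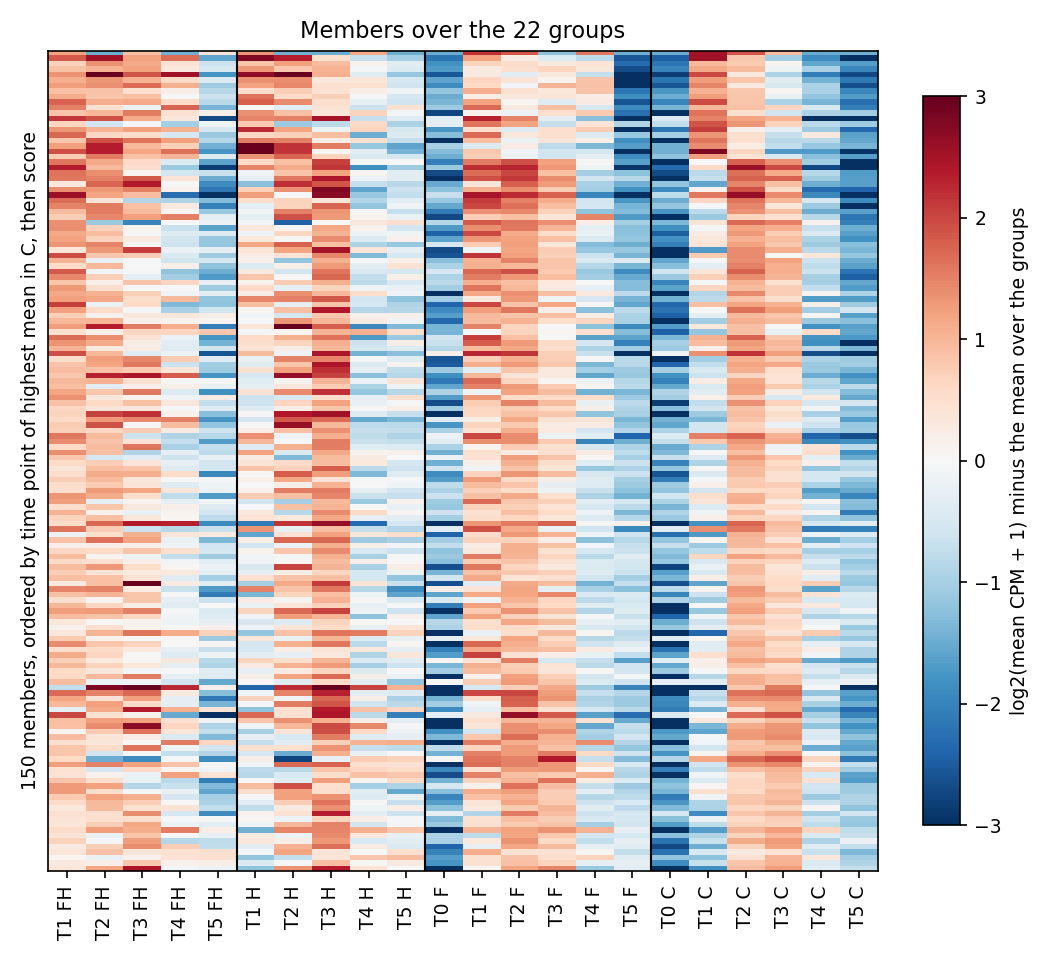
Heat map of the 150 members (rows, ordered by the time point of their highest mean in C and then by score) over the 22 groups (columns, FH, H, F and C, each in order of time), coloured by log2(mean CPM + 1) minus the mean of the member over the groups and limited to 3 either way. The 96 members highest at T2 in C form the middle block, T3 H is the warmest column for 104 members within H, and a few rows are blue at T2 H.

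At T1 many members were higher in flooded than in control berries. None of these libraries chose the members, so the comparison of F with C could be tested, in a fit over all 19553 genes that reached 0.5 CPM in 3 or more libraries, a filter that all 150 members passed. At T1 the level in F passed the test as higher than in C for 66 members (44%) and as lower for 0 by edgeR's quasi-likelihood test (Benjamini-Hochberg adjustment, threshold 0.05, and a change of 1.5-fold or more), whereas 6.2% of all genes were called higher and 8.52% lower. The log2 fold changes of the members ran from -1.81 to 3.47 with a median of 1.38, against -0.05 for all genes, and 134 of the 150 were positive. Leaving out T1 C replicate 1, the C library with the lowest member level, brought the number of higher members to 24. The ripening index, which places a library between the T0 mean (0) and the T5 mean (1) of C and F by the genes that are not members, was 0.55 ± 0.06 in F and 0.23 ± 0.04 in C at T1 (SD, n = 3 each), and 0.54 ± 0.19 in C at T2. The index was higher in F together with the members, and its part in their level was not tested.

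Among droughted berries the difference between FH and H at T1 had the same sign but passed the test for few members. Of the 150, 2 were higher and 0 lower by edgeR (0.486% of all genes were higher and 0.164% lower). An unadjusted p under 0.05 was reached by 62 members (41.3%), against 17.7% of all genes. The median log2 fold change was 0.94 against -0.03 for all genes, and 135 were positive. Without T1 H replicate 3, whose member median of 41.5 CPM lay beside those of FH, 52 members were called higher. Without T1 FH replicate 2 the number was 15, and without any one of the other 4 libraries it was 0. DESeq2 called 19 higher. The pair called by edgeR, named after their values were seen, was VIT_12s0034g01160 with 15.1, 8.85 and 23.7 CPM in FH against 6.34, 4.39 and 7.38 CPM in H (log2 fold change 1.49, SE 0.36, adjusted p = 0.036) and VIT_18s0001g08200 with 18.7, 10.7 and 28.8 CPM in FH against 2.03, 2.01 and 5.71 CPM in H (log2 fold change 2.64, SE 0.67, adjusted p = 0.043), and both were also higher in F than in C at T1. The ripening index was 0.41 ± 0.12 in FH and 0.25 ± 0.04 in H (SD, n = 3 each).

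Before the heat, few members were called between H and C or between FH and F. At T1 only VIT_09s0002g08540 was higher in H than in C, with 14.7, 21.8 and 41.1 CPM in H and 11.3, 10.4 and 7.42 CPM in C (log2 fold change 1.49, SE 0.35, edgeR adjusted p = 0.036), and 0 members were lower, when 0.107% of all genes were higher and 0.266% lower. This call ended without T1 C replicate 1, 2 or 3, T1 H replicate 2 or T1 H replicate 3. An unadjusted edgeR p under 0.05 was reached in H over C by 21 members (14%), against 10.4% of all genes. Between FH and F at T1 the number of members called by edgeR was 0 (0 by DESeq2), with 0% of all genes higher and 0.00511% lower. An unadjusted edgeR p under 0.05 was reached by 7 members (4.67%), against 11.7% of all genes. In H over C the median log2 fold change was 0.32 and 110 members were positive. The sign of this median rested on T1 H replicate 3, without which it was -0.19. In FH over F the median was -0.05. The difference between these effects, tested as an interaction, called 0 members with edgeR (0 with DESeq2), the same as the 0% of all genes called in either direction. Before adjustment 4 members (2.67%) had an edgeR p under 0.05, against 4.67% of all genes.

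Between T1 and T2 many members rose in H berries and few changed in FH berries, and the difference between the treatments in this step was not tested. In H, 43 members were higher and 6 lower at T2 than at T1 (10.1% of all genes were higher and 14.2% lower), with a median log2 fold change of 0.66 against -0.03 for all genes. The number higher was 24 without T1 H replicate 1, 22 without T1 H replicate 2 and 63 without T1 H replicate 3, and the number lower was 10 without T2 H replicate 1 and 1 without T2 H replicate 2 or 3. In FH, 1 member was higher and 2 were lower (2.65% of all genes were higher and 3.59% lower) and the median was -0.01. The single higher member, VIT_12s0059g00490, had 471, 373 and 275 CPM at T2 and 36.2, 4.57 and 53.6 CPM at T1 in FH (log2 fold change 3.66, SE 0.88, edgeR adjusted p = 0.0091), and was not called without T1 FH replicate 2 (adjusted p = 0.078). The number lower was 4 without T1 FH replicate 3, 3 without T2 FH replicate 2, and 1 without T1 FH replicate 1 or 2 or T2 FH replicate 1 or 3. Of the 43 members that were higher in H at T2, 33 (76.7%) were among the 66 higher in F than in C at T1, or 50% of those 66. Over all genes 774 were higher in both, 39.3% of those higher in H at T2 and 63.9% of those higher in F at T1, so the share of the 66 was below that of all genes and the share of the 43 above it.

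During the heatwave the members of H berries stood a little below those of C at T2 and above them at T3. At T2, where the C and F libraries chose the members and comparisons with them carry no test, the median difference in log2(CPM + 1) was -0.37 for H minus C and -0.29 for FH minus F. FH and H could be compared, and edgeR called 0 members at T2 (0 by DESeq2), as it did for all genes (0% in either direction). An unadjusted edgeR p under 0.05 was reached by 3 members (2%), against 4.16% of all genes. At T3 every H library (60.8 to 73.4 CPM) lay above every C library (27.8 to 47.8 CPM) in the median of the members, and the log2 fold changes of H over C had a median of 0.70, against -0.05 for all genes, with 133 positive. Even so, edgeR called 0 members in H over C at T3 (0.0716% of all genes were higher and 0.102% lower), 38 (25.3%) had an unadjusted p under 0.05, against 14.5% of all genes, and DESeq2 called 4 higher.

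At T3 few members passed the test between FH and H berries. In FH over H, 0 members were higher and 3 lower (0.772% of all genes were higher and 0.588% lower), the median log2 fold change was -0.49 against 0.04 for all genes, and 121 of the 150 were negative. Without T3 FH replicate 3 the median was -0.18 and without T3 FH replicate 2 it was -1.01. Without T3 FH replicate 1 the number lower was 9 and without T3 FH replicate 2 it was 10, while it was 0 without T3 FH replicate 3 and without T3 H replicate 1 or 3. The lowest fold change among the 3 was that of VIT_15s0048g00740, one chosen after its values were seen, with 3.07, 7.58 and 4.80 CPM in FH and 40.0, 26.2 and 29.6 CPM in H (log2 fold change -2.62, SE 0.66, edgeR adjusted p = 0.034). In FH over F at T3, 0 members were higher and 3 lower (1.25% of all genes were higher and 1.69% lower) and the median was 0.08, which turned to -0.31 without T3 FH replicate 2. The number lower there was 5 without T3 FH replicate 1 and 1 without T3 FH replicate 2 or T3 F replicate 3, and 1 member was higher without T3 FH replicate 1 or 3 or T3 F replicate 1. The effect of the summer stress in flooded and unflooded berries at T3, tested as an interaction, gave 0 members with edgeR (0 with DESeq2) and 0% of all genes. Before adjustment 13 members (8.67%) had an edgeR p under 0.05, against 8.66% of all genes. The median difference was -0.58 (-0.27 without T3 FH replicate 3). Flooding alone, F over C, gave 0 members at T3 with edgeR (0 with DESeq2) and 0% of all genes. Before adjustment 5 members (3.33%) had an edgeR p under 0.05, against 7.42% of all genes.

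**Figure D3:**
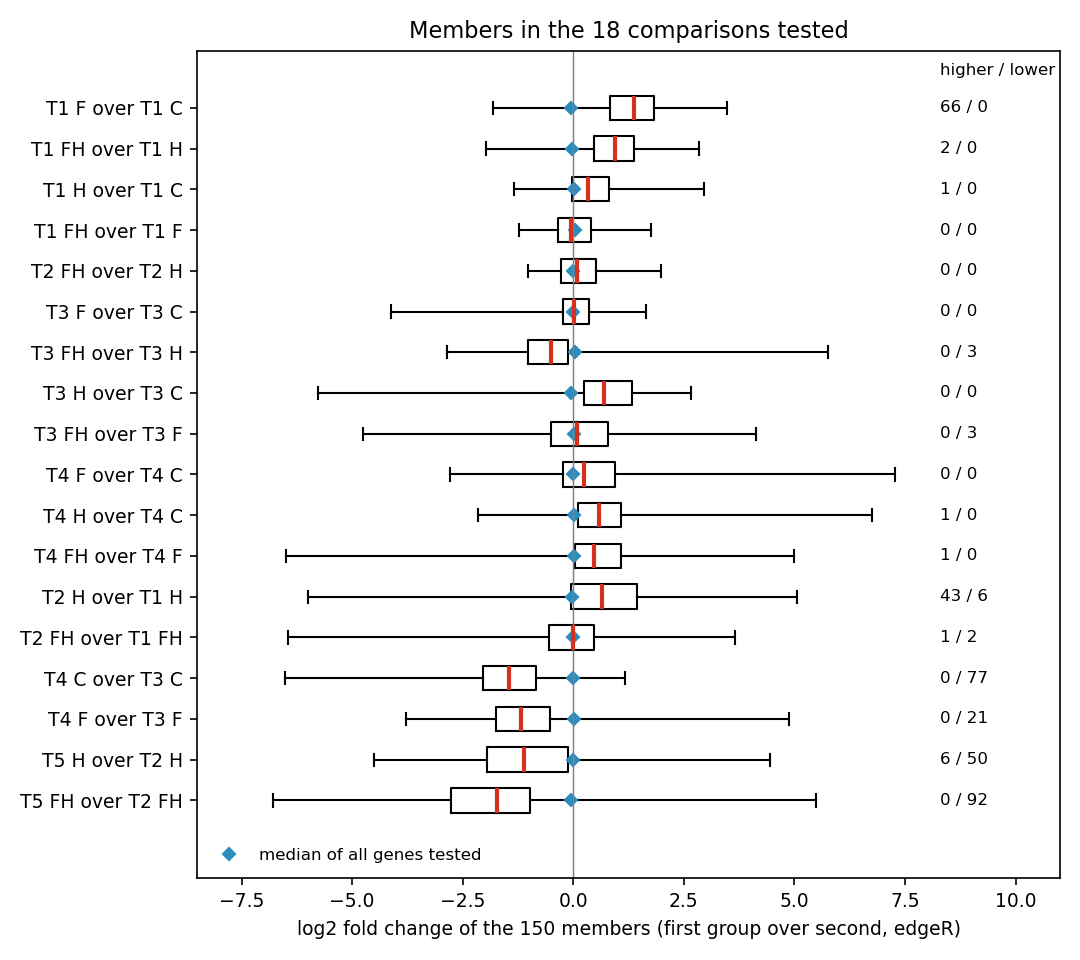
Log2 fold changes of the 150 members in the 18 comparisons tested (first group over second, edgeR), with boxes from the lower to the upper quartile, a red line at the median, whiskers to the lowest and highest member and a blue diamond at the median of all 19553 genes. The numbers at the right are members called higher and lower. By the median, the largest rise is that of F over C at T1 (66 higher). The largest falls are those of C (77 lower) and F (21 lower) from T3 to T4, and of H (50 lower) and FH (92 lower) from T2 to T5. Those of C and F lie within the fall by which the members were chosen.

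In C and F berries the members fell from T3 to T4. The rule chose them as lower at T5 than at T2 on average over C and F. A fall between T3 and T4 lies within that span, so its direction was partly built in. The shares of members called lower, beside those of all genes, are therefore a description. In C, 77 members (51.3%) were lower and 0 higher at T4 than at T3, when 8.41% of all genes were lower and 6.26% higher, and the median log2 fold change was -1.46. In F, 21 members (14%) were lower and 0 higher, when 0.905% of all genes were lower and 0.44% higher, and the median was -1.18. Of these 21 members, 19 (90.5%) were among the 77 of C, or 24.7% of those 77. Over all genes 107 were lower in both, 60.5% of those of F and 6.51% of those of C. The count in C was 43 without T3 C replicate 1 and 47 without T4 C replicate 3. The count in F was 1 without T3 F replicate 2 or T4 F replicate 1, 12 without T4 F replicate 2 and 6 without T4 F replicate 3, so this count rests on single libraries. The ripening index was 0.90 ± 0.02 at T4 and 0.67 ± 0.16 at T3 in C, and 0.82 ± 0.09 at T4 and 0.79 ± 0.05 at T3 in F (SD, n = 3 each).

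From T2 to T5 many members fell in the stressed berries, whose libraries had no part in choosing them. In FH, 92 members (61.3%) were lower and 0 higher at T5 than at T2, when 16.1% of all genes were lower and 11.7% higher, and the median log2 fold change was -1.72 against -0.06 for all genes. In H, 50 members (33.3%) were lower and 6 higher, when 13% of all genes were lower and 10.9% higher, and the median was -1.11. Without T5 H replicate 3, 80 members of H were lower, and without T5 H replicate 1 or 2 the number was 28 or 31. The number higher was 11 without T2 H replicate 1, 2 without T2 H replicate 2 or T5 H replicate 3, and 3 without T2 H replicate 3. A total of 47 members were lower in both, 51.1% of those of FH and 94% of those of H, and over all genes 1596 were lower in both, 50.6% of those of FH and 62.8% of those of H. Counting C and F from T3 to T4 as well, 110 members (73.3%) were lower in at least 1 of the 4 falls and 9 (6%) in all of them, against 24.5% and 0.23% of all genes. The spans of these falls differ, and those of C and F lie within the fall that chose the members, so these shares are a description. T5 H replicate 3 had a ripening index of 0.769, against 0.947 and 0.908 in replicates 1 and 2 of its group, and in T4 FH replicate 2, the other late library with a high member level, the index was 0.667, against 0.887 and 0.880 in its group. The part of the index in the level of the members in these libraries was not tested.

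At T4, after recovery, few members were called between treatments. The median log2 fold change was 0.59 for H over C, with 1 member higher and 0 lower (0.251% of all genes were higher and 0.194% lower), and 0.47 for FH over F, with 1 higher and 0 lower (0.184% of all genes were higher and 0.0102% lower). The member called in H over C was VIT_16s0050g02680, with 96.6, 18.8 and 77.8 CPM in H and 11.3, 10.2 and 7.23 CPM in C (log2 fold change 2.79, SE 0.67, edgeR adjusted p = 0.043), and it was called without T4 H replicate 2 but not without any other library of the comparison. In FH over F it was VIT_01s0011g04780, with 1.15, 42.5 and 2.44 CPM in FH and 0.27, 0.32 and 1.09 CPM in F (edgeR log2 fold change of 4.99 with an SE of 1.05, adjusted p = 0.023), a call for which T4 FH replicate 2 was decisive, since 0 members were called without it and the median over the members turned to -0.19. Without T4 FH replicate 1 the number was 12, without T4 FH replicate 3 it was 4, and without any F library it was 0. F over C gave 0 members at T4 with edgeR (2 with DESeq2) and 0% of all genes. Before adjustment 22 members (14.7%) had an edgeR p under 0.05, against 8.71% of all genes. At T5, where C and F chose the members, the median difference in log2(CPM + 1) of H minus C was 0.98 and that of FH minus F 0.28, which supports no difference because the rule picked low values in C and F. The 3 H libraries spread from 9.28 to 33.4 CPM in the median of the members, so that the lowest of them was close to the C libraries.

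NCED5 (VIT_10s0003g03750) was higher in F than in C at T1, and its rise and fall in C and F are part of what chose it. At T1 it had 66.5, 43.0 and 73.7 CPM in F against 16.2, 12.7 and 16.2 CPM in C (log2 fold change 2.23, SE 0.74, edgeR adjusted p = 0.029). It had 63.2, 42.1 and 68.9 CPM in FH against 12.1, 12.2 and 32.5 CPM in H at T1, where the groups did not overlap either but the test was not passed (log2 fold change 1.68, SE 0.73, adjusted p = 0.21). In H it rose to 255, 260 and 133 CPM at T2, against 12.1, 12.2 and 32.5 CPM at T1 (log2 fold change 3.74, SE 0.78, adjusted p = 0.00033). Every T2 library of H lay above every T1 library of H. The call of F over C at T1 was kept without T1 F replicate 2 but ended without any other of its libraries, with adjusted p between 0.061 (without T1 F replicate 1) and 0.089 (without T1 C replicate 1).

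The level of NCED5 (VIT_10s0003g03750) fell in C to 8.52, 21.5 and 18.2 CPM at T4, against 93.1, 59.4 and 106 CPM at T3 (log2 fold change -2.40, SE 0.74, edgeR adjusted p = 0.021). At T5 it was down to 17.2, 7.10 and 12.0 CPM in FH, against 100, 78.6 and 294 CPM at T2 (log2 fold change -3.76, SE 0.79, adjusted p = 0.00028), and to 5.58, 17.7 and 53.1 CPM in H, against 255, 260 and 133 CPM at T2 (log2 fold change -3.09, SE 0.76, adjusted p = 0.0023). Its highest group mean, 246 ± 296 CPM in FH at T3 (SD, n = 3), came from 1 library with 588 CPM beside 85.8 and 65.6 CPM. The call in C ended without T3 C replicate 1 or 3 or T4 C replicate 1 or 3 (adjusted p from 0.057 to 0.088), while the calls in FH and H were kept without any one library.

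NCED3 (VIT_19s0093g00550) was also high around T2, with a wide spread between replicates. In C its mean was 20.1 ± 8.6 CPM at T0, 26.9 ± 1.7 CPM at T1, 90.7 ± 53.5 CPM at T2, 105 ± 108 CPM at T3, 13.3 ± 8.3 CPM at T4 and 6.21 ± 2.06 CPM at T5 (SD, n = 3 each). At T1 it had 232, 42.0 and 67.1 CPM in FH and 41.1, 45.5 and 192 CPM in H, with 1 high library in each, against 28.7, 25.5 and 26.6 CPM in C. Every H library lay above every C library at T1, but the test was not passed (H over C, log2 fold change 1.90, SE 0.92, edgeR adjusted p = 0.46). At T3 it had 71.2, 69.6 and 313 CPM in H against 62.7, 23.8 and 228 CPM in C (log2 fold change 0.63, SE 0.89, edgeR adjusted p = 0.79), and the sign of this value turned without T3 H replicate 3.

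The fall of NCED3 (VIT_19s0093g00550) passed the test in all 4 comparisons, from T3 to T4 in C and F and from T2 to T5 in FH and H. The spans differ, and the step from T3 to T4 was not tested in FH and H. In C it had 6.65, 22.6 and 10.6 CPM at T4 against 62.7, 23.8 and 228 CPM at T3 (log2 fold change -3.0, SE 0.96, edgeR adjusted p = 0.025), and in F it had 4.80, 14.7 and 5.05 CPM at T4 against 69.7, 195 and 38.2 CPM at T3 (log2 fold change -3.70, SE 0.99, adjusted p = 0.044). In FH it had 0.87, 0.46 and 2.80 CPM at T5 against 51.8, 5.49 and 56.2 CPM at T2 (log2 fold change -4.82, SE 1.10, adjusted p = 0.00073), and in H 0.91, 1.26 and 15.5 CPM at T5 against 15.7, 48.8 and 48.4 CPM at T2 (log2 fold change -2.61, SE 0.96, adjusted p = 0.035). The call in FH was kept without any one library. Those in C, F and H were not, with the largest adjusted p of 0.25 without T3 C replicate 3 in C (also lost without T4 C replicate 1 or 3), 0.27 without T3 F replicate 2 in F (also lost without any T4 F library) and 0.16 without T5 H replicate 2 in H (also lost without T5 H replicate 1 or T2 H replicate 2 or 3). At harvest the mean of NCED3 was below its T0 level in C and F, whereas that of NCED5 was within 1 SD of it.

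**Figure D4:**
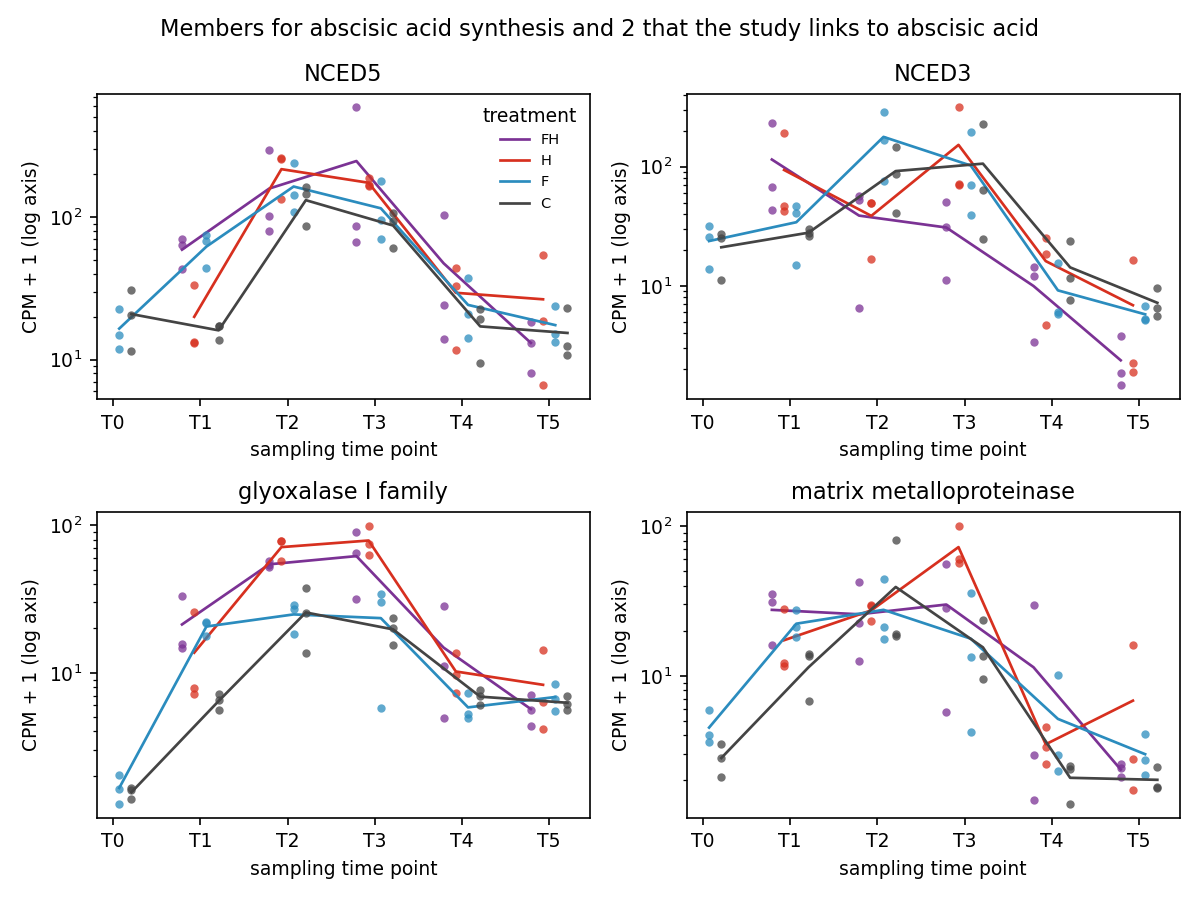
CPM + 1 (log axes) of NCED5, NCED3, the glyoxalase I family gene and the matrix metalloproteinase gene in each library by time point, with points for libraries and lines through the means of FH, H, F and C. NCED5 is higher in F and FH than in C and H at T1, the glyoxalase gene is highest in H and FH at T2 and T3, and the matrix metalloproteinase gene peaks at 71.4 ± 24.3 CPM in H at T3 (SD, n = 3).

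The 4 members from the abscisic acid network, chosen by their pulse in C and F, also fell from T2 to T5 in FH. The glyoxalase I gene (VIT_09s0002g06430), whose family detoxifies methylglyoxal, was higher at T1 in F, with 21.2, 16.8 and 20.8 CPM against 4.57, 5.51 and 6.22 CPM in C (log2 fold change 2.06, SE 0.59, edgeR adjusted p = 0.011). In H it rose to 77.9, 76.9 and 55.9 CPM at T2, against 6.88, 6.22 and 25.0 CPM at T1 (log2 fold change 2.67, SE 0.58, adjusted p = 0.00056). At T3 it had 73.5, 62.0 and 98.2 CPM in H against 19.1, 14.5 and 22.5 CPM in C, which did not overlap but missed the threshold with edgeR (log2 fold change 2.21, SE 0.57, adjusted p = 0.069) and passed it with DESeq2 (adjusted p = 0.015). It fell by T5 to 4.57, 6.08 and 3.37 CPM in FH, against 53.0, 50.8 and 56.5 CPM at T2 (log2 fold change -3.61, SE 0.62, adjusted p = 2.0e-05), and to 3.18, 5.38 and 13.3 CPM in H, against 77.9, 76.9 and 55.9 CPM at T2 (log2 fold change -3.29, SE 0.60, adjusted p = 0.00013).

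The matrix metalloproteinase gene (VIT_01s0026g00900), from a family of extracellular proteases, fell in C to 0.39, 1.38 and 1.48 CPM at T4, against 22.5, 8.52 and 12.5 CPM at T3 (log2 fold change -3.67, SE 1.05, edgeR adjusted p = 0.013). In FH it fell to 1.42, 1.11 and 1.57 CPM at T5, against 21.6, 11.5 and 41.1 CPM at T2 (log2 fold change -4.24, SE 1.05, adjusted p = 0.0016). MYB108 (VIT_07s0005g01950) was less abundant, at most 15.8 ± 5.5 CPM in H at T3 (SD, n = 3), and was lower at T4 than at T3 in C (log2 fold change -2.57, SE 0.89, adjusted p = 0.036) and at T5 than at T2 in H (-2.66, SE 0.86, adjusted p = 0.016) and FH (-3.01, SE 0.89, adjusted p = 0.0073). The thioredoxin superfamily gene (VIT_10s0003g00390), from a family of redox proteins, was lower at T5 than at T2 in H (log2 fold change -2.71, SE 0.86, adjusted p = 0.015) and FH (-3.97, SE 0.96, adjusted p = 0.0012). Of the 10 IDs around abscisic acid used here, which are not the whole network, 7 could be tested. At T5 7 of them were lower than at T2 in FH and 4 in H, beside 16.1% and 13% of all genes, with the reservation that the list was drawn up by the study from these same libraries. The call of the glyoxalase gene (VIT_09s0002g06430) in F over C at T1 ended without T1 C replicate 1 (adjusted p = 0.064), that of the matrix metalloproteinase gene (VIT_01s0026g00900) in C without T3 C replicate 1 or T4 C replicate 1, that of MYB108 (VIT_07s0005g01950) in C without any library but T3 C replicate 2, and those of MYB108 and the thioredoxin gene in H without T2 H replicate 3 or T5 H replicate 1 or 2.

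Most other hormone genes named by the study were no members. For F over C at T1, 6.2% of all genes were higher and 8.52% lower. For H at T2 over T1, 10.1% were higher and 14.2% lower. Of the 5 genes of abscisic acid metabolism, 3 were higher in F than in C at T1 (NCED5, NCED4 and the 8'-hydroxylase gene CYP707A3) and 0 lower. The same 3 were higher in H at T2 than at T1. NCED4 (VIT_02s0087g00930) and CYP707A3 (VIT_18s0076g00340) had ranks of 365 and 931 by score. Of 5 ethylene synthesis genes 0 were members, and the only 1 called in F over C at T1 was the ACC oxidase gene ACO1, which was higher. Of 4 gibberellin genes 3 were tested, 0 were members and 0 were called in F over C at T1. Of 16 auxin genes taken from those the study names, 0 were members. The study names them as lower in F than in C at T1 in these same samples. That all 16 were called lower in F over C at T1 was therefore fixed in advance and is no evidence. Of a heat shock gene (HSP101) and a galactinol synthase gene (GOLS4), 0 were members, and 1 was higher in F than in C at T1. Among the IDs that the study names and that are no members, the profiles over the 22 groups most like the mean of the members were those of a MYB gene (VIT_19s0015g01280, r = 0.85), a histidine kinase gene (VIT_04s0069g00750, r = 0.80), a pyridoxal phosphate phosphatase gene (VIT_04s0008g00870, r = 0.77), CYP704B1 (VIT_01s0026g02700, r = 0.65) and the ACC synthase gene ACS1 (VIT_15s0046g02220, r = 0.65). These correlations are descriptions over 22 group means, and the highest group mean was 0.24 CPM for CYP704B1 and 4.34 CPM for ACS1.

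The highest scores belonged to members without a name. VIT_05s0051g00590 had a score of 4.46, and its mean in C was 30.6 ± 8.1 CPM at T0, 678 ± 248 CPM at T1, 2322 ± 473 CPM at T2, 1776 ± 375 CPM at T3, 333 ± 36 CPM at T4 and 59 ± 24 CPM at T5 (SD, n = 3 each). At T1 it had 2491, 2058 and 1509 CPM in F against 392, 815 and 827 CPM in C (log2 fold change 1.78, SE 0.61, edgeR adjusted p = 0.034). In C it fell to 354, 354 and 292 CPM at T4, against 2099, 1365 and 1863 CPM at T3 (log2 fold change -2.37, SE 0.62, adjusted p = 0.0073), and in FH to 352, 65.8 and 256 CPM at T5, against 1412, 1597 and 1494 CPM at T2 (log2 fold change -2.80, SE 0.63, adjusted p = 0.00065). VIT_06s0004g00070, with a score of 4.15, had 1.33, 2.13 and 1.89 CPM in C at T4 against 101, 58.2 and 56.5 CPM at T3 (log2 fold change -5.27, SE 0.94, adjusted p = 0.00029), the groups lying far apart. The call of VIT_05s0051g00590 in F over C at T1 was kept without T1 F replicate 3 only, with adjusted p up to 0.16 (without T1 C replicate 1), and the falls of both genes given here were kept without any one library.

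Some members were low in H and FH berries at T2, when drought, heat and tunnel could not be told apart. At T2, 15 members (10%) had all H and FH libraries below all C and F libraries, against 6.13% of all 12249 IDs. The reverse held for 6 members (4%, against 3.74%). The C and F libraries at T2 chose the members, so these counts were not tested. VIT_17s0053g00990 and VIT_17s0000g00820 had the most negative change in FH over F at T3 among members with at least 5 CPM in F. VIT_17s0053g00990 had 42.6, 12.7 and 21.1 CPM in FH against 214, 233 and 358 CPM in F at T3 (log2 fold change -3.37, SE 0.45, edgeR adjusted p = 2.4e-05), and against 91.6, 130 and 89.7 CPM in H (log2 fold change -2.06, SE 0.43, adjusted p = 0.015). In H it fell to 18.7, 8.18 and 28.3 CPM at T2, against 112, 46.4 and 134 CPM at T1 (log2 fold change -2.20, SE 0.43, adjusted p = 0.00014), and in FH to 48.6, 55.5 and 37.2 CPM at T2, against 380, 165 and 262 CPM at T1 (log2 fold change -2.42, SE 0.43, adjusted p = 0.00067). At T2 its C and F libraries, which the rule had picked as high, had 245 to 416 CPM. At T1, before the heat, its mean was 97.7 CPM in H against 138 CPM in C, and 269 CPM in FH against 370 CPM in F. Neither of these T1 comparisons was called by edgeR. In H it stood again at 121, 106 and 210 CPM at T5, a rise over T2 (log2 fold change 2.97, SE 0.44, adjusted p = 8.7e-06), while in C its level at T5 was 29.4, 22.4 and 20.6 CPM. Like other members it was higher in F than in C at T1, with 494, 344 and 273 CPM in F against 91.8, 159 and 163 CPM in C (log2 fold change 1.63, SE 0.42, adjusted p = 0.0051). Without T1 C replicate 1 the adjusted p of this comparison was 0.053, and the call of FH over H at T3 ended without T3 H replicate 1 or 3 or T3 FH replicate 3.

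VIT_17s0000g00820 had 5.18, 0.15 and 1.95 CPM in FH against 43.7, 50.4 and 104 CPM in F at T3 (edgeR log2 fold change of -4.75 with an SE of 1.04, adjusted p = 0.0061). In H it fell to 2.44, 0.16 and 0 CPM at T2, against 11.1, 14.8 and 13.8 CPM at T1 (log2 fold change -3.66, SE 1.09, adjusted p = 0.0093), and was higher at T5, with 5.22, 13.5 and 39.2 CPM (log2 fold change over T2 4.46, SE 1.11, adjusted p = 0.0025). Without T3 FH replicate 2 or T3 F replicate 3 the first of these calls ended (adjusted p = 0.054 and 0.051), and the second ended without T2 H replicate 2 or 3. The comparisons of H share its T2 libraries. Already at T1, before the heat, the mean of VIT_17s0000g00820 was 13.2 CPM in H against 27.0 CPM in C. In FH it was 18.2 CPM at T1, against 37.3 CPM in F. Neither of these T1 comparisons was called by edgeR, and the parts of drought, heat and tunnel in its level were not tested.

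**Figure D5:**
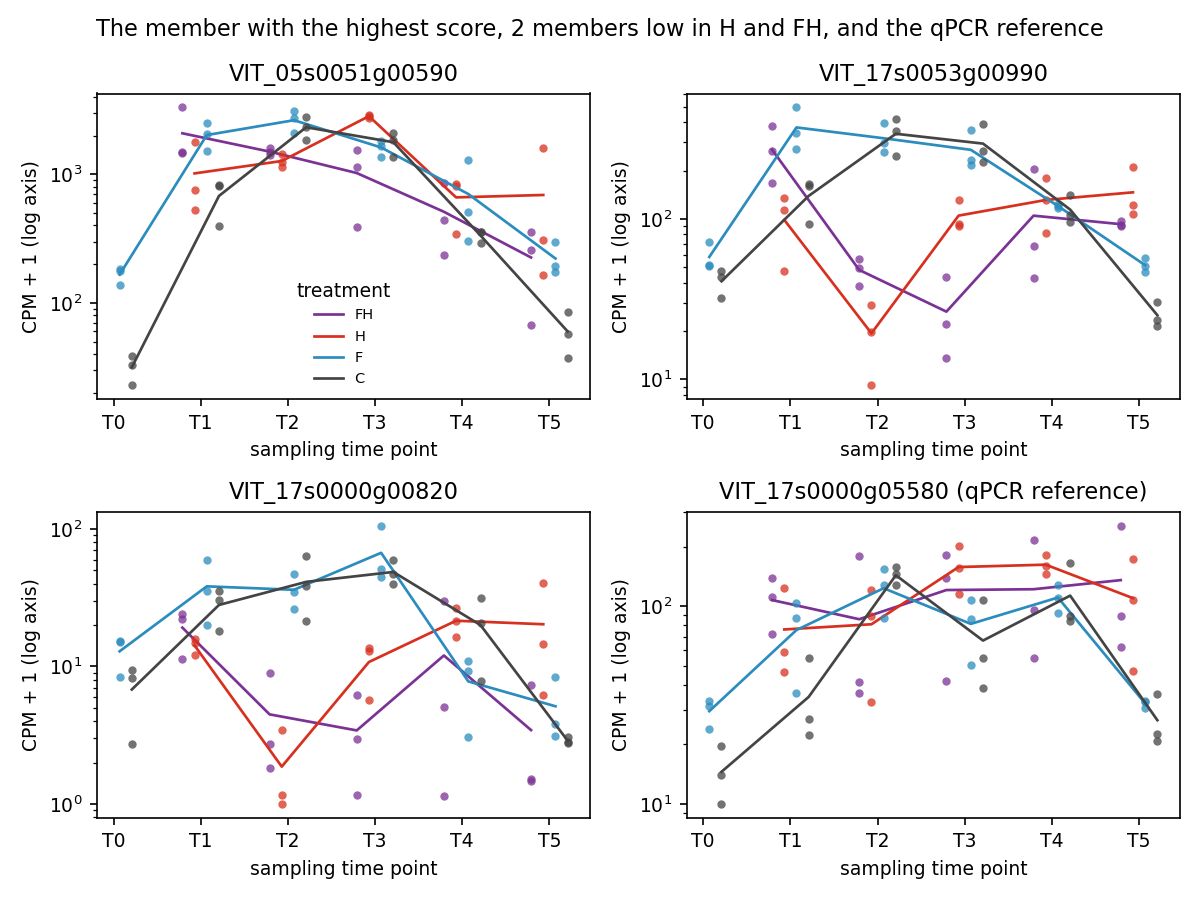
CPM + 1 (log axes) of the member with the highest score (VIT_05s0051g00590), 2 members that were low in H and FH at T2 (VIT_17s0053g00990 and VIT_17s0000g00820) and the qPCR reference gene (VIT_17s0000g05580) in each library by time point, with points for libraries and lines through the means of FH, H, F and C. The middle pair drops in FH and H at T2 while F and C stay high, and the reference gene ranges from 8.98 to 254 CPM.

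One member had been used as a stable gene. VIT_17s0000g05580 is 1 of 5 genes whose transcripts the study amplified to normalize its quantitative PCR, with a pair of primers that is shown here because it defines which transcript served as the reference, as the study lists them:
forward primer: cataatatgtacagcgagcgtctcc
reverse primer: tgtctactcgccgacttcactag
In these libraries VIT_17s0000g05580 had 18.6, 13 and 8.98 CPM in C at T0, 156, 127 and 145 CPM at T2, and 35.2, 19.7 and 21.6 CPM at T5. Over the 66 libraries it ran from 8.98 to 254 CPM, a ratio of 28.3, and over the group means from 13.5 CPM in C at T0 to 162 CPM in H at T4, a ratio of 12.0. The other 4 reference genes, VIT_13s0019g04720, VIT_06s0004g03310, VIT_04s0008g07400 and VIT_10s0003g00990, had ratios of 1.83 to 2.41 over the 66 libraries. VIT_17s0000g05580 was called in none of the 18 comparisons tested by edgeR, the nearest being F over C at T1 with 103, 35.3 and 86.5 CPM in F against 54.0, 21.4 and 25.8 CPM in C (log2 fold change 1.37, SE 0.61, adjusted p = 0.11). The levels of this gene at T0, T2 and T5 in C and F chose it, and contrasts between them were not tested.

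The gene next to it by ID, VIT_17s0000g05570, was a member as well, and reads of neighbouring genes may be shared where their ends overlap, which the table does not show. The log2(CPM + 1) values of the pair correlated with r = 0.47 over the 66 libraries, the lowest of the 5 neighbouring pairs. VIT_17s0000g05570 fell in C to 25.0, 34.7 and 27.9 CPM at T4, against 94.9, 76.5 and 85.1 CPM at T3 (log2 fold change -1.51, SE 0.33, edgeR adjusted p = 0.0017), while VIT_17s0000g05580 had 165, 87.8 and 83.7 CPM at T4 and 53.5, 37.7 and 107 CPM at T3. In FH VIT_17s0000g05570 fell to 33.5, 28.3 and 34.0 CPM at T5, against 127, 91.2 and 93.4 CPM at T2 (log2 fold change -1.78, SE 0.33, adjusted p = 6.9e-05), whereas VIT_17s0000g05580 had 254, 88.2 and 61.4 CPM at T5 and 35.6, 40.1 and 179 CPM at T2.

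Total counts ran from 15927671 to 24150978 per library, and at most 4 members were without a count in any of them. In the T0 libraries of C and F, where the members were scarcest, 1 to 4 members had no count.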

How the data were processed

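Berry RNA of 66 libraries was sequenced as stranded single-end reads. Per the study's methods and the submitters' notes, the authors mapped reads with TopHat, and the notes also name Trimmomatic 0.39 and featureCounts, whereas the methods describe untrimmed reads counted with Bedtools. For the strand setting and other versions, the sources used here give nothing. The authors deposited 1 table of raw counts per gene ID, of which rows that share an ID were summed. Members were ranked on log2(CPM + 1). Comparisons were tested on the counts with edgeR 4.0.16 (R 4.3.3; TMM, robust quasi-likelihood fit of 22 group means, genes that reached 0.5 CPM in 3 or more libraries, Benjamini-Hochberg adjustment over 19553 genes). A call needed an adjusted p under 0.05 and a 1.5-fold change. Alternatives were DESeq2 1.42.0, RLE factors, no filter, a replicate block, only the time points compared and each library left out. The tests were also run on simulated data, from which no result is used here. Members and gene lists were chosen with earlier results of these data known. Named genes were those the study names, the 2 highest scores, the 2 lowest changes in FH over F at T3 and its qPCR reference gene.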

Additional observations from a re-analysis of the deposited data

How the results depend on the processing

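Counts of members called were most open to the processing where they were small. With DESeq2 the number was 19 for FH over H and 3 for H over C at T1, 7 for FH over F, 10 for FH over H and 4 for H over C at T3, 7 for FH over F, 9 for H over C and 2 for F over C at T4, 6 for FH at T2 over T1 and 42 for F at T4 over T3 (edgeR: 2, 1, 3, 3, 0, 1, 1, 0, 3 and 21). Without the filter it was 1 for FH over H and 0 for H over C at T1, and 0 for H over C at T4. With only the time points compared it was 0 for FH over H and H over C at T1, FH over H at T3, and FH over F and H over C at T4, and 4 for F at T4 over T3. With the replicate number as a block it was 1 for FH over H and 0 for H over C at T1, and 0 for FH over F and H over C at T4. In none of the 18 comparisons were all 3 correlations of deviations between same-numbered libraries over 0.1, so the numbers were not taken as pairs. At T0, where nothing was tested, the 3 correlations between F and C were 0.21 to 0.36, and over all time points the median was -0.00024 over 93 pairs with the same number and 0.023 over 186 others. Leaving out 1 library gave 24 to 59 members for F over C, 0 to 52 for FH over H and 0 to 1 for H over C at T1, 26 to 67 for H and 1 to 5 for FH at T2 over T1, 1 to 6 for FH over F and 0 to 10 for FH over H at T3, 0 to 12 for FH over F and 0 to 1 for H over C at T4, 43 to 78 for C and 1 to 28 for F at T4 over T3, and 36 to 82 for H and 69 to 92 for FH at T5 over T2. NCED3 in H over C at T3 ranged from -0.48 (without T3 H replicate 3) to 2.05 (without T3 C replicate 3) on the log2 scale with 1 library left out, a change of sign whose cause was not tested. Of the values of single genes under these alternatives, 415 kept their direction and side of the threshold, 100 lost the call and 1 gained it. The set itself kept at least 116 of its 150 members under 8 other settings of the rule and 137 to 148 with 1 of its 18 libraries left out.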
